A study of Homo sapiens and Mus musculus with 16 samples.

Results

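The regions described here are the accessible chromatin regions at the loci of the MYC transcription factor network, namely MYC, MYCN, MYCL, MAX, MXD1, MNT and MLX and their mouse orthologs. Members were all regions that overlapped the gene body of 1 of these 7 genes or the 50 kb on either side of it, and for MYC also all regions within 1 Mb of the gene body. By this rule 718 of 364071 regions in 4 lists were members. Of these, 214 came from the control (Cas9) list, 179 from the HNF4G-KO list, 157 from the KPC primary tumor list and 168 from the KPC liver mets list. The rule takes regions by position alone, and the 7 genes were chosen with earlier results of these data known.

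MYC, MYCN and MYCL are related transcription factors that drive growth and division and are often amplified or overexpressed in tumors. Each binds DNA only as a dimer with MAX, and the preferred site of the dimer is the E-box CACGTG. MXD1 and MNT also pair with MAX and repress the genes that MYC activates, whereas MLX is a MAX-like partner that shares MNT and MXD1 and also binds the glucose-sensing factor MondoA. MYC lies in a large region with few coding genes, and distant enhancers spread over this region drive its expression in a manner that differs between tissues.

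ATAC-seq, which cuts accessible DNA with a transposase, was carried out on 16 samples, 4 in each of 4 groups, and the deposited data held 1 region list for each group. HPAF-II is a human pancreatic ductal adenocarcinoma cell line, compared as a control that had received Cas9 (genotype label WT) and as HNF4G-KO, a pool of 3 clones in which Cas9 with guides against HNF4G had been used to disrupt this nuclear receptor. The KPC lines came from 1 mouse model of pancreatic cancer, and the line from the primary tumor was compared with a matched line from liver metastases (liver mets). All cells were grown in culture, and the KPC samples were labeled untreated and, for genotype, WT. A single pool of clones and a single pair of mouse lines stand for each contrast, so the genotype or site cannot be told apart from other differences between these lines. Accessible regions do not show whether HNF4G protein was lost, and the knockout was not checked here.

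The lists held 118107 regions in control, 97047 in HNF4G-KO, 68074 in primary tumor and 80843 in liver mets. Sequencing depth is unknown, and no value per replicate was analyzed, so no replicate spread and no p-value could be given. Each region carried a score of unstated scale, which was turned into a percentile within its own list: 100 is the top of the list, and a change is the percentile in the second list of a pair (HNF4G-KO or liver mets) minus that in the first. Percentiles are ranks within a list, so levels were not compared between HPAF-II and KPC. Distances run from the outermost gene start to the nearest edge of a region, and upstream and downstream follow the strand of the gene. Intervals of shares are 95% Wilson intervals and cover counting error only. The epithelial markers EPCAM, KRT8, KRT18, KRT19, CDH1 and CLDN4 all had a region within 1 kb of a start site in both HPAF-II lists, at percentiles of 54.0 to 98.2. In KPC, 5 of these 6 did, at percentiles of 13.9 (Epcam, liver mets) to 65.9 (Krt19, liver mets), and Cldn4 did not. Hepatocyte markers had such a region for 2 of 4 in both HPAF-II lists, 1 of 4 in primary tumor and 0 of 4 in liver mets, and Alb had none in any list. The leukocyte genes PTPRC and CD3E had none in any list, CD68 had one in all 4, and fibroblast genes had one for 3 of 4 in HPAF-II and 1 of 4 in KPC. Of the endothelial genes, Pecam1 alone had one, in both KPC lists. The part of other cell types in the KPC lists was not tested.

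The sequences below show E-boxes at the start sites of the network genes themselves. They are 30-base stretches, written 5′ to 3′ on the strand of the gene from hg38 for human and mm10 for mouse, with the E-box in capitals. Each lies in a region within 1 kb of a start of its own gene in both lists of a pair, and distances are counted from the outermost annotated gene start.
MAX, human, 168 bp upstream, chr14:65102849-65102878: tccagctccctcCACGTGtcctgtcttccc
MAX, human, 569 bp upstream, chr14:65103250-65103279: acgctggagcctCACGTGagtagctgagta
MXD1, human, 16599 bp inside the gene, chr2:69914273-69914302: ccccgcagcagcCACGTGgcgcctgcccta
MNT, human, 1373 bp inside the gene, chr17:2399717-2399746: tccgcccccgacCACGTGcaccggggacac
MNT, human, 146 bp upstream, chr17:2401236-2401265: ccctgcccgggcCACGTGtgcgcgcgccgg
MLX, human, 20 bp upstream, chr17:42567038-42567067: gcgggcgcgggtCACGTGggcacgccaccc
Mycl, mouse, 1530 bp inside the gene, chr4:122997168-122997197: gtgtctgtctggCACGTGggtgtgttggta
Max, mouse, 47 bp upstream, chr12:76962234-76962263: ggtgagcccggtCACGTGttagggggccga
Max, mouse, 322 bp upstream, chr12:76962509-76962538: cccagctccctcCACGTGtcctgtcttccc
Mnt, mouse, 117 bp upstream, chr11:74830789-74830818: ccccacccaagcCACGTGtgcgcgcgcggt
Mnt, mouse, 1384 bp inside the gene, chr11:74832290-74832319: cccgcccccgacCACGTGcacgggggacac
Mlx, mouse, 25 bp upstream, chr11:101087238-101087267: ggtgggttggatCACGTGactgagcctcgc

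E-boxes lay in such regions of MAX, MLX and MNT in both species, of MXD1 in human and of Mycl in mouse. None was found for MYCN in either species or for Myc in mouse, and human MYC was left out of this search. The search took only regions of the first list of a pair whose nearest start belonged to the gene. It also needed the full 30 bases inside the region, so an E-box outside these limits would have been missed. Pairs of human and mouse stretches differed in how alike they were. The MAX stretch 168 bp upstream and the Max stretch 322 bp upstream were identical at 29 of 30 bases, the MNT and Mnt stretches 1373 and 1384 bp inside the gene at 28 of 30, and those 146 and 117 bp upstream at 24 of 30. The MLX and Mlx stretches, at 20 and 25 bp upstream, were identical at 17 of 30 bases, and the MAX stretch 569 bp upstream matched the 2 Max stretches at 11 and 9 of 30. Counted per region within 1 kb of any start site, an E-box was in 9 of 35 control regions at the 7 loci (25.7%, 14.2 to 42.1). The share over all such control regions was 16.1%. In primary tumor it was in 6 of 27 (22.2%, 10.6 to 40.8), against 17.8%. The list's share lay inside the interval in both. Median widths at the loci and over the list were 926 and 714 bp in control and 661 and 778.5 bp in primary tumor. In the RefSeq promoters (GRCh38.p14, 250 bases before to 50 after the start), MNT and MLX held an E-box, as did 7.26% of 35116 promoters.

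The next 3 sequences are from the human loci and are the regions to which the HPAF-II comparison below refers, the highest control-only region and the shared regions with the largest move down outside the MYC locus and the largest move up among regions that paired 1 to 1. They are written on the plus strand of hg38, with matches to any of 9 searched consensus sequences in capitals.
MNT, intron, in the control list alone, chr17:2395937-2396182: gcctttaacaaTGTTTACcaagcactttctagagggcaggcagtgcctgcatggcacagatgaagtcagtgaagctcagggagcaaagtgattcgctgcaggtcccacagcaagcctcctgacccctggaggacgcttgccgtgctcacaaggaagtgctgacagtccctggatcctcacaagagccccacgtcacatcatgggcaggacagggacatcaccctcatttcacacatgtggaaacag
MAX, intron, lower in HNF4G-KO, chr14:65073696-65073995: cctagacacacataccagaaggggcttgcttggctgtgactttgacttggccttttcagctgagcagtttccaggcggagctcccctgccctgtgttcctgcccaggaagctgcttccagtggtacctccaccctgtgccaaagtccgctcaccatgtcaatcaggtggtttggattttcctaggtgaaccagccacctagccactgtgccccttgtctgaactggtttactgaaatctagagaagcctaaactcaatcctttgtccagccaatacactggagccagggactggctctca
MXD1, 12.4 kb upstream, higher in HNF4G-KO, chr2:69885047-69885255: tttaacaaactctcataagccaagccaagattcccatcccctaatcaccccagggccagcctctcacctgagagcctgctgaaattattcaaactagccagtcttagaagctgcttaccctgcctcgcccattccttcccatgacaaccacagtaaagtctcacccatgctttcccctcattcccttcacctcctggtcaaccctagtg

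The capitals in the MNT region mark TGTTTAC, the consensus of FOXA factors. The MAX and MXD1 regions held none of the 9 sequences. These were the E-box CACGTG, CAAAGTCCA for HNF4, TGTTTAC for FOXA, AGATAAG for GATA factors, TGANTCA for AP-1, ACATTCCA for TEAD, CCGGAAGT for ETS, GGGCGTGGC for KLF and TGTGGTTT for RUNX. Each was read on both strands with exact letters, and none contains another. The following 6 regions are from the mouse loci, on the plus strand of mm10. They include the regions near Myc that were in the liver mets list alone. The others are some, not all, of the largest moves within 1 Mb of Myc and a region upstream of Max. Where a region was longer than 300 bases, its central 300 are shown.
Myc, 1.7 kb upstream, in the liver mets list alone, chr15:61983395-61983646: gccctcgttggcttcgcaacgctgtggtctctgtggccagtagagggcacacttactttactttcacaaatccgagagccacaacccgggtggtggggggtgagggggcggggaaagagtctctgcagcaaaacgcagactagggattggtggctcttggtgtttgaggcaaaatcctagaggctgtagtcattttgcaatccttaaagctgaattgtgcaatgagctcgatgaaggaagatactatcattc
Myc, 7.0 kb downstream, in the liver mets list alone, chr15:61992429-61992680: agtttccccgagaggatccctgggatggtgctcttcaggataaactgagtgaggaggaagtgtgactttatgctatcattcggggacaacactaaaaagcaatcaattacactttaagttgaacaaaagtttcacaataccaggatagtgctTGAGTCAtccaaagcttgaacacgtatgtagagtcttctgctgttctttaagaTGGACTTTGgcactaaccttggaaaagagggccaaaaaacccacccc
Myc, 335.2 kb upstream, higher in liver mets, chr15:61649866-61650165: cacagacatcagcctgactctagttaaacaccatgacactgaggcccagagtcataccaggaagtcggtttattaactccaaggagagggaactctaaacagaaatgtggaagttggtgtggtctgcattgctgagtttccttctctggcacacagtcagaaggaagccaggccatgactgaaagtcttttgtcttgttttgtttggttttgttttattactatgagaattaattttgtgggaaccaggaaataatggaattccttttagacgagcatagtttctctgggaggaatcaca
Myc, 343.6 kb downstream, higher in liver mets, chr15:62329051-62329350: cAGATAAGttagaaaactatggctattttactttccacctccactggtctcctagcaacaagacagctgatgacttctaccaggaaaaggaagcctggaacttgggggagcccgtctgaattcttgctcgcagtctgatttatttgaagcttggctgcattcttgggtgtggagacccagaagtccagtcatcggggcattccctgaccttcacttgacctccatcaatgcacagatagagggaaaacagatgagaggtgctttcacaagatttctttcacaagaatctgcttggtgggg
Myc, 320.4 kb downstream, lower in liver mets, chr15:62305815-62306077: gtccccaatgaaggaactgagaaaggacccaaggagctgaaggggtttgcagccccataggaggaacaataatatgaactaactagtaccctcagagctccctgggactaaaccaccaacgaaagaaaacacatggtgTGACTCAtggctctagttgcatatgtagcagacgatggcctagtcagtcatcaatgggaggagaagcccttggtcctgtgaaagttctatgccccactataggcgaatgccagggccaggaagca
Max, 20.7 kb upstream, higher in liver mets, chr12:76982861-76983138: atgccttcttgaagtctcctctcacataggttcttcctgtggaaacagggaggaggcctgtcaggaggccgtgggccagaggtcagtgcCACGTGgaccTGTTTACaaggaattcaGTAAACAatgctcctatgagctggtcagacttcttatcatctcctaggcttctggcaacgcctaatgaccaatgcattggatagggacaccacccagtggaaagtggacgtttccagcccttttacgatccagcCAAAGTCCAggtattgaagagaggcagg

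In these stretches the capitals mark an AP-1 and an HNF4 match 7.0 kb downstream of Myc, a GATA match 343.6 kb downstream, an AP-1 match 320.4 kb downstream, and an E-box, 2 FOXA matches and an HNF4 match upstream of Max. The other 2 stretches held none. An HNF4 match was found in 1.60% of all control regions, and in 0 of 85 control regions and 0 of 73 HNF4G-KO regions at the 7 human loci. With 85 regions, a count of 0 leaves room for a share of up to 4.32% by the Wilson interval. Within 1 Mb of MYC, 3 of 138 control regions (2.17%, 0.742 to 6.20) held an HNF4 match. In HNF4G-KO 2 of 113 did (1.77%, 0.487 to 6.22), against 1.40% of that list. A match is a stretch of letters and not a bound site.

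Control and HNF4G-KO were compared first at the 7 human loci, with MYC itself described together with its wider neighborhood further on. Here 14 of 85 control regions (16.5%, 10.1 to 25.8) were in the control list alone, against 25.0% of the whole control list. In HNF4G-KO, 2 of 73 regions (2.74%, 0.755 to 9.45) were in that list alone, against 6.76% of the whole list. Both shares at the loci were below the list's own share, which lay inside the interval in each case. At least 1 control-only region lay at 6 of the 7 loci, whereas 83.3% of all coding genes with a control region had one. KO-only regions lay at 2 of the 7 loci, MYC and MYCL, against 40.3% of genes. When the control list was cut by score to the length of the HNF4G-KO list, 7 of 73 regions in each list (9.59%) were in that list alone. The whole lists under the same cut had 15.1% control-only and 12.7% KO-only regions, so the difference shrank over all regions too.

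**Figure D1:**
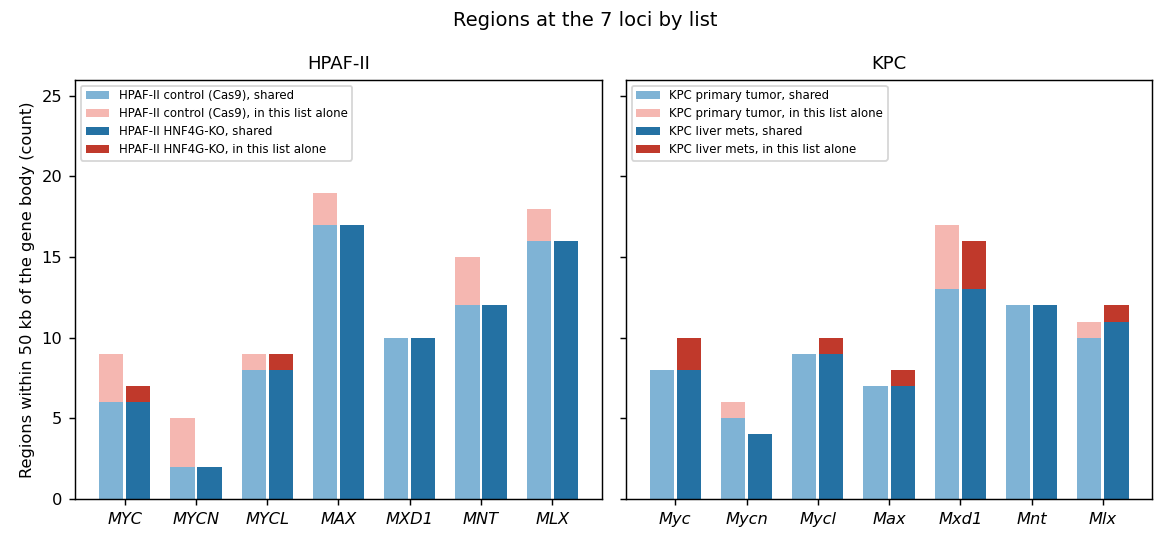
Regions within 50 kb of each gene body (count, vertical axis) at the 7 loci in the 4 lists; bars are stacked by regions shared with the other list of the pair and regions in that list alone. The control list held up to 3 regions of its own at a locus (MYC, MYCN and MNT), and Mxd1 was the locus with most one-list regions in KPC, 4 in primary tumor and 3 in liver mets.

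Among the MYC paralogs, MYCN (hg38 chr2:15940550-15947007, plus strand) differed most between the HPAF-II lists in number. The control list held 5 regions there and HNF4G-KO 2. The 3 control-only regions were weak, at 28.1 kb upstream (percentile 20.2), 24.4 kb downstream (32.1) and 49.2 kb downstream (6.99). Both shared regions ranked lower in HNF4G-KO. The start-site region went from percentile 55.6 to 38.7, and a region over the start of the noncoding RNA MYCNUT, 19.6 kb upstream, went from 54.7 to 34.5. In control the start-site region was 1451 bp wide and covered the start, whereas in HNF4G-KO it was 731 bp wide and ended 273 bp before it.

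MYCL (chr1:39895428-39902256, minus strand), the paralog first found in lung cancer, had 9 regions in each list and 1 in each alone. Its start-site region ranked at 86.6 in control and 89.8 in HNF4G-KO. The lists split this stretch differently: control had a region at 23.4 beside it, which overlapped the 1242-bp HNF4G-KO start-site region as well as a separate one at 36.8, so its change of 66.5 points is one of pairing. Upstream of the gene, 3 regions ranked lower in HNF4G-KO: 17.3 kb upstream (89.8 to 77.8), 31.8 kb upstream (77.0 to 60.5) and 41.3 kb upstream (48.7 to 28.3). The KO-only region lay 41.7 kb upstream, close to the last of these, at percentile 5.19.

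MAX (chr14:65006174-65102695, minus strand), the obligate partner of all MYC proteins, had a start-site region near the top of both lists, at percentiles 97.2 and 95.3. Of its 17 shared regions, 10 ranked lower and 7 higher in HNF4G-KO, or 8 and 9 with percentiles among shared regions alone. The largest move down outside MYC was in a MAX intron 28.7 kb inside the gene (41.4 to 7.41), and the next intronic region, 20.8 kb inside, went from 56.1 to 35.6. In the opposite direction, an intronic region 54.4 kb inside went from 42.1 to 63.6, and a region 135.4 kb from the start, in an intron of the neighboring RAB15, went from 41.7 to 65.8. Part of the MAX gene body overlaps FNTB and CHURC1-FNTB, and the region 54.4 kb inside lies in introns of all 3.

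Of the repressive partners, MXD1 (chr2:69897688-69942945, plus strand) had the same 10 regions in both lists and none in 1 list alone. Its start-site region, over an inner start 16.4 kb into the annotated gene that is also the RefSeq start, ranked at 99.9 in control and 99.7 in HNF4G-KO, the highest of the member start sites. A region 3.2 kb upstream of the outer start, which also covers a start of SNRNP27, went from 64.6 to 35.9, and the region 12.4 kb upstream shown above went from 5.44 to 33.2. MNT (chr17:2384073-2401104, minus strand) had 3 control-only regions, at percentiles of 34.1 in its own intron, 30.3 in an intron of METTL16 and 22.8 in an intron of SGSM2. Its highest start-site region was over an inner start 3.9 kb into the gene and went from 64.6 to 71.4, while the region beside the outer start went from 61.8 to 57.8. The region between them, with the E-box 1373 bp inside the gene, went from 61.1 to 69.5. Deeper in the gene, the lists split a stretch 7.2 kb inside differently, with 1 region at 49.2 in control and 2 at 55.6 and 24.3 in HNF4G-KO. The region beside the outer start turned to 5.37 points higher with percentiles among shared regions alone, whereas the highest start-site region and the one with the E-box inside the gene ranked higher either way.

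MLX (chr17:42567072-42573239, plus strand) had 18 regions in control and 16 in HNF4G-KO, with 2 in control alone. Its start-site region went from 79.1 to 69.3. The locus is dense in genes, and 11 of its 18 control regions lay within 1 kb of a start site of some gene, among them COASY, NAGLU and PSMC3IP. Across all 7 loci, the start-site regions of MYC, MYCL and MNT ranked higher in HNF4G-KO and those of MYCN, MAX, MXD1 and MLX lower, least in MXD1 (-0.18 points) and most in MYCN (-16.9 points). These 7 directions were the same with percentiles among shared regions alone. Over all 14450 coding genes with such a region in both lists the median change was -0.60 points, with quartiles of -4.34 and 1.92. MYCN and MLX were below the lower quartile, and MYC, MYCL and MNT were above the upper one. Start-site regions were present for all 7 genes in both lists, against 74.9% of coding genes in control and 72.9% in HNF4G-KO.

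Of the 71 control regions at the 7 loci that were shared, 41 ranked lower and 30 higher in HNF4G-KO, with a median change of -1.72 points against -4.65 over all 88632 shared regions, of which 70.0% ranked lower. A rank lower by at least 10 points was seen in 19 of 71 (26.8%, 17.9 to 38.1), against 33.6% of all shared regions, and one higher by at least 10 points in 12 of 71 (16.9%, 9.94 to 27.3), against 7.75%. Of those 12, 4 did not pair 1 to 1, as at MYCL, and their size comes with regions that merged. Counted over the HNF4G-KO regions, 9 of 71 ranked at least 10 points higher. The share over all shared HNF4G-KO regions was not computed, and the 7.75% is over control regions, so this count has no background. The negative median depends on the ranking: with percentiles taken among shared regions alone, 29 regions ranked lower and 42 higher, the median over the 7 loci was 1.98 and that over all shared regions 0.68.

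The same comparison in KPC placed the primary tumor line beside the liver mets line. Of 70 primary tumor regions at the 7 loci, 6 (8.57%, 3.99 to 17.5) were in that list alone, against 8.51% of the whole list. In liver mets, 8 of 72 (11.1%, 5.74 to 20.4) were, against 20.2%. Tumor-only regions lay at 3 of 7 loci (Mycn, Mxd1 and Mlx), against 43.6% of coding genes, and mets-only regions at 5 of 7 (Myc, Mycl, Max, Mxd1 and Mlx), against 71.0%. The highest mets-only regions were 48.7 kb downstream of Mxd1 (percentile 58.0), 55.1 kb downstream of Mycl in an intron of Trit1 (38.6) and 59.5 kb downstream of Mxd1 (23.4). The highest tumor-only regions were 49.8 kb downstream of Mlx (24.2), 28.7 kb downstream of Mxd1 (14.4) and 39.1 kb downstream of Mycn (10.0).

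Myc (mm10 chr15:61985391-61990374, plus strand) had 8 regions in primary tumor, all shared, and 10 in liver mets. The 5 regions from the promoter to 6.5 kb beyond the start all ranked higher in liver mets: 0.8 kb upstream (36.3 to 46.1), over the start (41.3 to 47.8), in the gene body (14.4 to 33.0), 5.8 kb downstream (3.24 to 7.55) and 6.5 kb downstream (20.6 to 32.7). The 3 regions farther downstream did not, with 51.7 to 47.6 at 13.4 kb, 91.1 to 90.1 at 42.9 kb and 54.3 to 42.2 over the start of Pvt1. At the whole locus 5 of 8 shared regions thus ranked higher, close to the 64.9% of all shared regions of the pair. The mets-only regions lay just beyond the 5 regions that ranked higher, on either side of them, 1.7 kb upstream (percentile 21.4) and 7.0 kb downstream (6.51). In both lists the highest region of the locus was the one at 42.9 kb, not the start-site region.

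Mycn (mm10 chr12:12936093-12941914, minus strand) showed a start-site region at 48.4 in primary tumor and 54.3 in liver mets. A pair of weak tumor regions over its start and just inside the gene, at percentiles 13.4 and 3.17, were a single region at 46.8 in liver mets, and a region in a Gm40271 intron 30.9 kb downstream went from 85.4 to 70.3. Mycl (mm10 chr4:122995652-123002485, plus strand) went from 57.8 to 61.7 at its start site, and regions 10.2 kb upstream (58.9 to 75.1) and 4.7 kb upstream (13.4 to 33.0) also ranked higher in liver mets. In the neighboring Trit1, beside the mets-only region, an intronic region 56.0 kb downstream went from 69.2 to 53.5.

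Max (mm10 chr12:76937269-76962201, minus strand) had its start-site region at 97.1 and 97.9. All 5 regions upstream of its start ranked higher in liver mets, from 65.9 to 75.0 at 19.2 kb, 9.41 to 35.3 at 20.7 kb, 62.0 to 74.5 at 33.2 kb, 26.4 to 41.8 at 37.9 kb and 1.47 to 19.2 at 38.7 kb. The region downstream, 34.2 kb from the start, went from 96.3 to 91.3. Mxd1 (mm10 chr6:86647042-86669161, minus strand) had its start-site region at 97.3 and 97.4. Of its 13 shared regions, 10 ranked higher in liver mets, or 9 with percentiles among shared regions alone. Over all shared regions 64.9% and 54.6% did so. Mnt (mm10 chr11:74830920-74845725, plus strand) had the same 12 regions in both lists, with its highest start-site region, over an inner start, at 62.9 and 67.3, the one at the outer start with an E-box at 48.1 and 58.9 and the one between with an E-box at 54.6 and 60.4. There the regions 9.2 kb upstream (15.9 to 36.5) and 4.4 kb upstream (32.0 to 56.4), both in exons of Mettl16, ranked higher in liver mets. Mlx (mm10 chr11:101087277-101092207, plus strand) had the largest change at a start site, from 65.5 to 79.8, and the largest move down of the 7 mouse loci, 41.6 kb downstream (70.9 to 49.4).

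All 7 mouse start-site regions ranked higher in liver mets, by 0.109 to 14.4 points, but with percentiles among shared regions alone those of Mycl (-0.83) and Mxd1 (-0.29) turned. Over 12462 coding genes the median change was 1.76 points with quartiles of -2.02 and 6.84, and Mlx alone was above the upper quartile. Start-site regions were again present for all 7 genes in both lists, against 57.9% and 59.1% of coding genes. Of the 64 shared primary tumor regions, 46 ranked higher and 18 lower in liver mets, with a median change of 5.89 points against 3.67 over all 62280 shared regions, of which 64.9% ranked higher. A rank higher by at least 10 points was seen in 22 of 64 (34.4%, 23.9 to 46.6), against 30.8% of all shared regions, and one lower in 6 of 64 (9.38%, 4.37 to 19.0), against 12.4%. Of those 22, 3 did not pair 1 to 1. Both shares were close to those of the whole list. With percentiles among shared regions alone, 40 ranked higher and 24 lower, and the median was 1.73, against 0.99 over all shared regions.

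**Figure D2:**
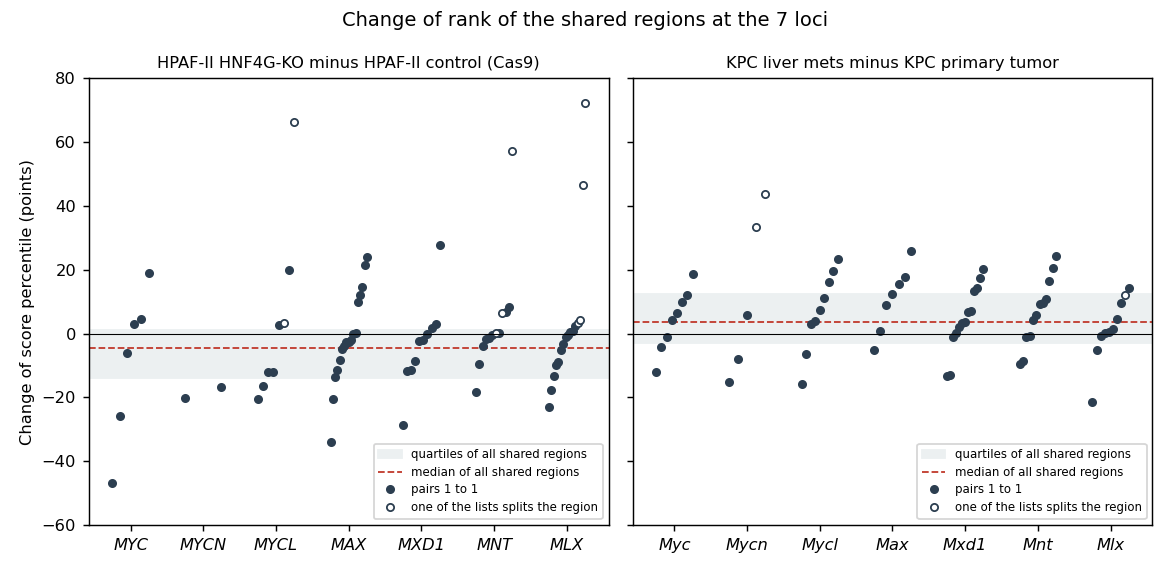
Change of score percentile in points (vertical axis, second minus first list) of each shared region at the 7 loci; filled points pair 1 to 1, open points belong to a region that one of the lists splits, the dashed line is the median and the band the quartiles over all shared regions. The 4 highest open points, at MYCL, MNT and MLX (46.5 to 72.4 points), overlap a longer HNF4G-KO region, and the lowest filled point is the region 12.7 kb downstream of MYC.

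Human MYC (hg38 chr8:127735434-127742951, plus strand) had 9 regions in control and 7 in HNF4G-KO within 50 kb. Its start-site region ranked at 70.5 in control and 73.6 in HNF4G-KO, and a region over the end of the gene at 79.1 and 83.8. A region 1.0 kb upstream, 98 bp from a start of the noncoding RNA CASC11, went from 52.1 to 45.9 and turned to 4.93 points higher with percentiles among shared regions alone. Downstream of the gene, 2 shared regions ranked far lower in HNF4G-KO, at 12.7 kb (57.2 to 10.2) and at 27.9 kb (61.1 to 35.3). Upstream, the region 47.0 kb away in a CASC11 exon went the other way, from 45.8 to 64.7. The control-only regions were 46.4 kb upstream (31.0), 20.3 kb downstream (4.00) and 46.8 kb downstream (1.13), and the KO-only region was 47.2 kb downstream (14.8). The regions at 12.7 and 27.9 kb held none of the 9 searched sequences.

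Within 1 Mb of MYC, 37 of 138 control regions (26.8%, 20.1 to 34.8) were in that list alone, close to the 25.0% of the whole list. In HNF4G-KO 9 of 113 (7.96%, 4.25 to 14.4) were, close to 6.76%. The control-only regions were mostly weak, as over the whole list. There the median percentile was 17.9 for control-only and 62.1 for shared regions, and in HNF4G-KO it was 11.5 for KO-only and 53.3 for shared regions. The highest control-only regions near MYC were in a PCAT1 intron 800.5 kb upstream (percentile 55.0), in a CCDC26 exon 913.6 kb downstream (45.8) and 95.6 kb upstream (42.6). The highest KO-only regions were 620.7 kb upstream (33.2), 169.2 kb upstream (32.1) and 238.8 kb upstream (22.8). No coding gene other than POU5F1B lay in this window, and most of its regions were in introns of noncoding RNAs or between genes.

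**Figure D3:**
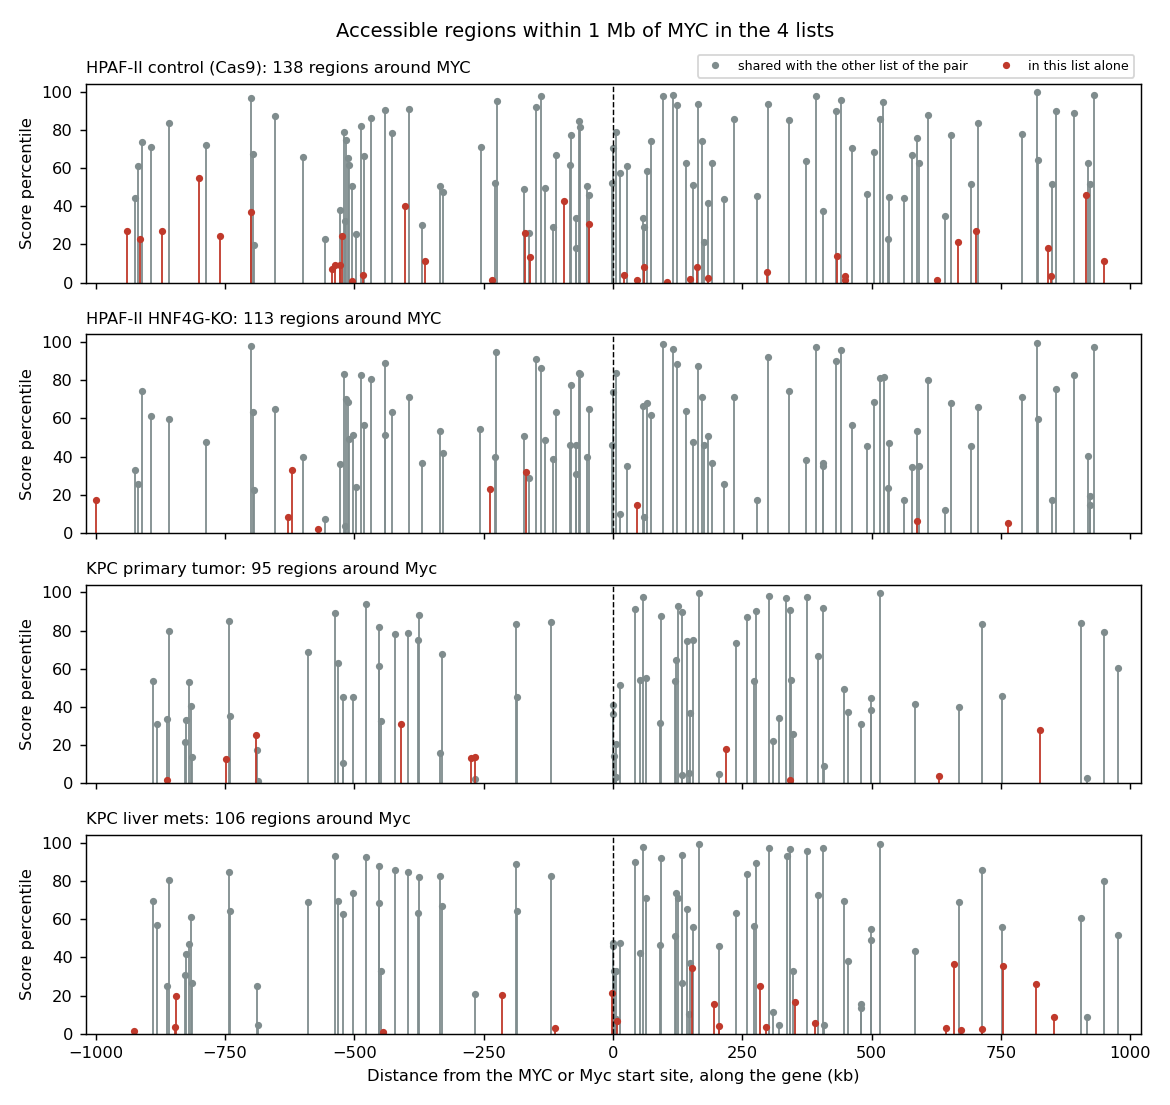
Score percentile (vertical axis) of every region by its distance from the MYC or Myc start site in kb (horizontal axis), in the 4 lists; gray regions are shared with the other list of the pair and red regions are in that list alone. The red regions reach percentile 55.0 at most, in control, and the tallest region stands at the same distance in both lists of a pair.

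The 3 highest control regions of the MYC neighborhood differed by less than 2 points between the lists. The highest in control was in an intron of LINC00824, 819.3 kb downstream, at 99.8 in control and 99.4 in HNF4G-KO. It was followed by a PVT1 intron 115.7 kb downstream (98.1 and 96.4) and a CCDC26 intron 930.4 kb downstream (98.0 and 97.6). PVT1 is a noncoding RNA that is often amplified together with MYC. Further down the list, where a percentile has more room to rise, ranks moved more. The largest moves down were the region 12.7 kb downstream of MYC (-47.0 points), a region in a CCDC26 intron 922.1 kb downstream (51.8 to 14.5) and one in a PCAT1 intron 917.9 kb upstream (61.2 to 25.6). The largest moves up were over the start of PVT1, 58.5 kb downstream (33.9 to 66.3), 72.3 kb upstream (17.9 to 45.9) and in a PVT1 intron 175.7 kb downstream (21.2 to 46.3). The PVT1 start region and the one at 922.1 kb did not pair 1 to 1.

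Of 101 shared control regions within 1 Mb of MYC, 71 ranked lower and 30 higher in HNF4G-KO, with a median change of -4.75 points, against 70.0% lower and a median of -4.65 over all shared regions. With percentiles among shared regions alone, 48 ranked lower and 53 higher, with a median of 0.42, and 46.6% of all shared regions ranked lower. A rank lower by at least 10 points was seen in 39 of 101 (38.6%, 29.7 to 48.4), against 33.6%, and one higher in 4 of 101 (3.96%, 1.55 to 9.74), against 7.75%. Within 500 kb the median was -1.53. The medians of 200-kb bins, each with 7 to 25 control regions, followed no steady order with distance. They were closest to 0 beside the start, at -0.65 points up to 200 kb upstream and -2.27 up to 200 kb downstream. The next bin downstream, from 200 to 400 kb, had the lowest median of all (-14.2), and the one from 400 to 600 kb had -3.58. The outermost bins were at -11.4 upstream and -10.3 downstream. All 4 regions that ranked at least 10 points higher lay within 176 kb of the MYC start.

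**Figure D4:**
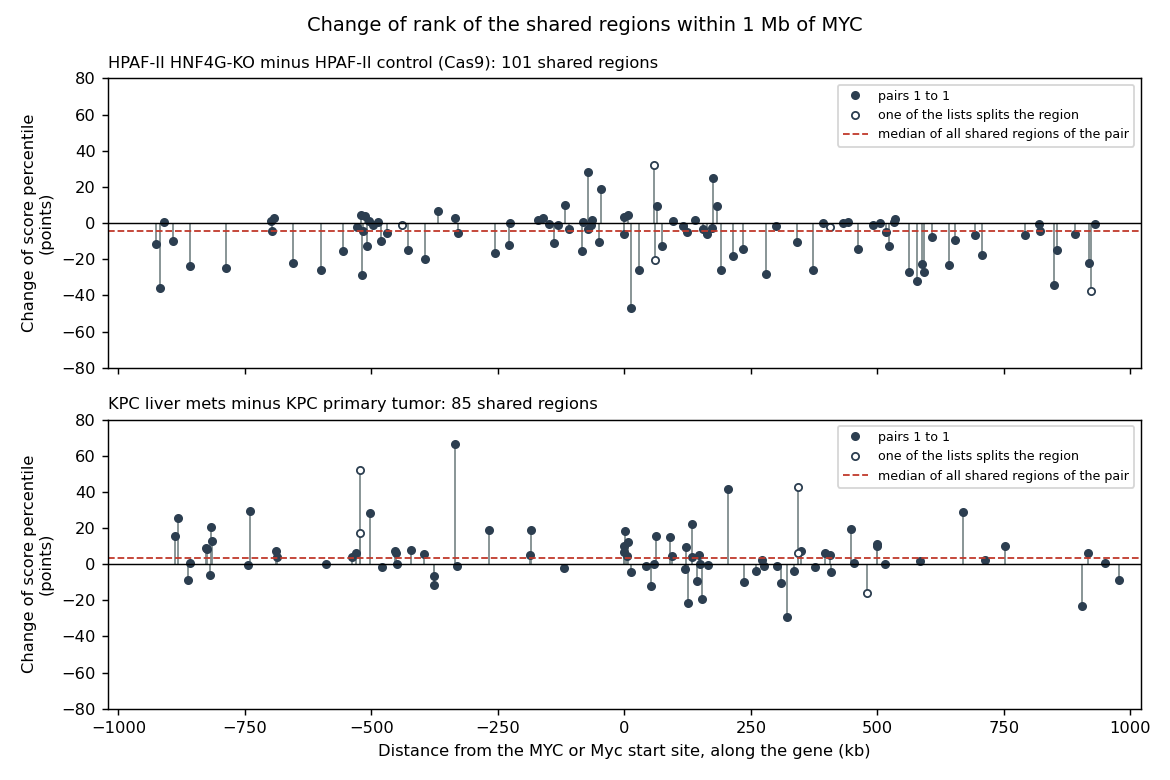
Change of score percentile in points (vertical axis) of each shared region by its distance from the MYC or Myc start site in kb (horizontal axis); filled points pair 1 to 1, open points belong to a region that one list splits, and the dashed line is the median over all shared regions of the pair. In HPAF-II the lowest point is 12.7 kb downstream of MYC, and in KPC the highest is 335.2 kb upstream of Myc.

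Within 1 Mb of mouse Myc, 10 of 95 primary tumor regions (10.5%, 5.82 to 18.3) and 22 of 106 liver mets regions (20.8%, 14.1 to 29.4) were in 1 list alone, against 8.51% and 20.2% of the whole lists. When the liver mets list was cut to the length of the primary tumor list, the order turned, with 18.9% tumor-only and 10.7% mets-only. It turned over all regions under that cut as well, with 15.6% and 14.0%. Of 8 liver mets regions from 600 to 800 kb downstream, 5 were mets-only, among them the 2 highest, in introns of the noncoding RNA Gm41333 at 659.6 kb (percentile 36.5) and 753.3 kb (35.6). The next was in a Pvt1 intron 151.9 kb downstream (34.6). The highest tumor-only regions were 409.8 kb upstream in an intron of D030024E09Rik (31.3), 825.2 kb downstream (28.1) and 690.7 kb upstream (25.5).

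The strongest regions were shared here too, and one-list regions ranked lower over the whole lists as well. The median percentile was 11.6 for tumor-only and 54.1 for shared regions in primary tumor. In liver mets it was 19.4 for mets-only and 58.9 for shared regions. A Pvt1 intron 166.0 kb downstream ranked at 99.9 in primary tumor and 99.5 in liver mets, a region between genes 515.3 kb downstream at 99.5 and 99.4, and another Pvt1 intron 301.3 kb downstream at 98.1 and 97.3. The largest change was from 15.9 to 82.6 in an intron of D030024E09Rik, 335.2 kb upstream of Myc, where the region widened from 379 to 558 bp. The next, 521.9 kb upstream (10.7 to 62.8) and 343.6 kb downstream in a Pvt1 intron (54.3 to 96.7), were each the weaker of 2 tumor regions that were 1 region in liver mets. The stronger of the 2 tumor regions ranked at 45.4 and 90.7, respectively. The largest moves down were 320.4 kb downstream (34.1 to 4.76), 904.5 kb downstream (84.0 to 60.9) and 126.2 kb downstream (92.8 to 71.2), the first and last in Pvt1 introns. Of 85 shared regions, 54 ranked higher and 31 lower in liver mets, with a median change of 4.26 points against 3.67, and with percentiles among shared regions alone 47 ranked higher and 38 lower. A rank higher by at least 10 points was seen in 21 of 85 (24.7%, 16.8 to 34.8), against 30.8%, and one lower in 9 of 85 (10.6%, 5.67 to 18.9), against 12.4%.

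The AP-1 consensus, bound by FOS and JUN dimers, was the searched sequence found most often in the MYC neighborhood, as over each whole list. It was in 56.5% (48.2 to 64.5) of 138 control regions within 1 Mb of MYC, against 39.1% of the control list, with median widths of 481.5 and 462 bp. With regions more than 1 kb from any start site the shares were 59.8% (50.6 to 68.4) and 43.1%. In HNF4G-KO the shares were 54.0% and 39.2%, in primary tumor 56.8% and 46.0% and in liver mets 54.7% and 43.7%. Away from start sites the shares were 58.2% (48.0 to 67.8) and 44.2% in HNF4G-KO. In KPC they were 59.3% (48.7 to 69.1) and 53.6% in primary tumor and 57.3% (47.3 to 66.7) and 50.8% in liver mets, and in both mouse lists the list's share lay inside the interval. RUNX matches were in 14.7% (8.99 to 23.2) of primary tumor regions within 1 Mb of Myc, against 6.57% of the list, and in 12.3% (7.31 to 19.9) of those in liver mets, also against 6.57%. In both HPAF-II lists the list's share lay inside the interval, with 5.80% and 4.90% in control and 6.19% and 4.75% in HNF4G-KO. Away from start sites, the RUNX share of the liver mets list, 7.48%, lay inside the interval near Myc (11.5%, 6.52 to 19.4). In primary tumor the list's RUNX share away from start sites stayed below the interval near Myc (14.0%, 8.17 to 22.8). The E-box was in 4.35% (2.01 to 9.16) of control regions within 1 Mb of MYC, against 9.49% of the list, but away from start sites the list's share of 7.31% lay inside the interval (4.46%, 1.92 to 10.0). In the other 3 lists the list's share lay inside the interval for all regions, with 7.96% (4.25 to 14.4) and 9.35% in HNF4G-KO, 6.32% (2.93 to 13.1) and 10.0% in primary tumor, and 5.66% (2.62 to 11.8) and 8.49% in liver mets. The regions within 1 Mb of MYC had a median GC content of 45.4% in control and 43.7% in primary tumor, against 49.3% and 48.8% of the lists, and its part in these shares was not tested.

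Other genes of the network were followed by the region at their start sites. Among all coding genes with such a region in both lists of a pair, 10.4% ranked at least 10 points lower and 5.32% higher in HNF4G-KO, and 7.24% lower and 16.0% higher in liver mets. The further MAX and MLX partners MXI1, MXD3, MXD4, MGA, MLXIP and MLXIPL all had one in all 4 lists, with a median change of 1.66 points in HPAF-II and 4.22 in KPC, and none of the 6 differed by 10 points in HPAF-II, while 2 ranked that much higher in liver mets (Mxi1, 63.7 to 74.6, and Mga, 76.6 to 87.5). Of 10 cofactors and turnover factors of MYC, such as TRRAP and the ubiquitin ligase FBXW7, none differed by 10 points in HPAF-II and 3 ranked that much higher in KPC liver mets (Fbxw7, Trrap and the kinase Pim1). Of 16 MYC targets 15 had a start-site region in both HPAF-II lists (TERT had none), and of these 3 ranked at least 10 points lower in HNF4G-KO and 1 higher. They were the cyclin CCND2 (35.5 to 8.54), CAD of pyrimidine synthesis (84.0 to 70.7), LDHA of glycolysis (93.5 to 82.7) and, upward, ODC1 of polyamine synthesis (51.4 to 76.0). In KPC 4 of 16 targets ranked at least 10 points higher in liver mets, among them Cdk4 (37.6 to 58.0) and Ccnd2 (25.2 to 42.3), and 1 lower (Fbl, 73.9 to 63.2). Each of these counts of partners, cofactors and targets lay within 2 genes of what the shares of all coding genes give. Of the MondoA and MLX targets, the arrestin gene Arrdc4 had the largest KPC change (74.1 to 97.1), while Txnip went from 97.3 to 92.5. Among neighbors of MYC, GSDMC went from 75.7 to 52.6 in HPAF-II and Nsmce2 from 69.2 to 50.4 in KPC. No gene of these lists had its start-site region in 1 list alone.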

How the data were processed

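ATAC-seq of 16 samples was deposited by the authors as 4 BED lists of regions, 1 per group, each with a whole-number score that the authors gave to every region. How the 4 replicates of a group were combined, the peak caller, its threshold and any shift of reads to the insertion site are not given for ATAC-seq in the sources used here, and the methods there name HPAF-II only. The submitters' processing notes name Bowtie2 2.2.6, MACS2 2.1.1.20160309 and DiffBind, and the builds hg38 and mm10, without a role. All region ends lay inside hg38 (HPAF-II) or mm10 (KPC). Groups came from sample titles. The score has no stated scale and was used only as a percentile within its list (ties given their middle rank), so levels are not comparable between lists beyond rank. A longer list holds more weak regions, and depth, replicate spread and p-values were not available here.

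Regions of a pair were shared from 1 bp of overlap, paired with the longest overlap, and otherwise in 1 list alone. Genes and start sites were taken from GENCODE 44 and M21, a start-site region being the highest region within 1 kb of any start of a gene. Shares carry 95% Wilson intervals. Python 3.11.15, pandas 2.3.3 and scipy 1.17.1 were used. Overlaps were checked against bedtools 2.31.1 and tested on simulated data. The text names all 7 genes, their start-site regions, the 3 highest one-list regions per list, and, within 1 Mb of MYC, the 3 highest regions and 3 largest changes each way. Of other lists it names genes with a one-list start-site region or the 3 largest changes. Regions beyond this rule were described after their values were seen. Members and lists were chosen with earlier results of these data known. Alternatives were another overlap, list cuts by score, other windows and other rankings. One E-box stretch at a member start site is not reported here.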

Additional observations from a re-analysis of the deposited data

How the results depend on the processing

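Each share of one-list regions was recomputed under 6 alternatives and each median change under 4, and 51 of these 64 values stayed within the interval of the reported value. With the longer list of a pair cut by score to the length of the shorter, the control-only share fell to 9.59% at the 7 loci and 12.3% within 1 Mb of MYC, the KO-only share at the 7 loci was 9.59%, the tumor-only share near Myc 18.9% and the mets-only share there 10.7%. The whole lists under this cut had 15.1% control-only, 12.7% KO-only, 15.6% tumor-only and 14.0% mets-only regions. This alternative removes the difference in list length by construction. With 10 kb around the genes the control-only share was 8.57% (3 of 35 regions), the KO-only share 0 and the tumor-only share 3.12%. With regions within 500 bp counted as shared, the KO-only share at the 7 loci was 0. Percentiles among shared regions alone turned the HPAF-II medians to 1.98 at the 7 loci and 0.42 within 1 Mb of MYC, and lowered that of the 7 KPC loci to 1.73 points. Within 500 kb of MYC the HPAF-II median was -1.53. The reason for the changes with window size was not tested. No paired analysis was possible because each group had 1 list for its 4 replicates, and for the same reason no replicate could be left out. Few regions, at most 19 at 1 locus, 70 to 85 at the 7 loci and 95 to 138 within 1 Mb of MYC, limit the shares. Several alternatives held fewer.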
